A study of Mus musculus with 61 samples.

Results

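The genes described here code for voltage-gated sodium and calcium channels, namely the pore-forming alpha subunits and the auxiliary subunits that travel with them. A member is any gene whose symbol, read through the RefSeq identifier of its probe, is Scn followed by a digit or begins with Cacn. By this rule 31 of the 16358 genes named on the array were members, and each was read from 1 probe, the one with the highest mean signal. Of the 40 symbols of this form in the reference gene table, 9 were not analysed here (Scn1a, Scn2a, Scn3a, Scn9a, Scn4b, Cacna1b, Cacna1i, Cacna1s and Cacna2d4). The 31 members were 6 sodium channel alpha subunits, 3 sodium channel beta subunits, 3 calcium channel alpha subunits of the L type, 2 of the P/Q and R types and 2 of the T type, 3 alpha2delta, 4 beta and 8 gamma subunits.

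The brains of 6 male C57BL/6J mice, 8 weeks old and with no treatment or altered gene given in the labels, were frozen after perfusion and cut, each into 1 series of fractions. A fraction pooled 200 slices of 5 µm, which made it 1 mm wide. The C and Co series (13 and 16 fractions) ran from posterior to anterior, H and Ho (6 and 7) from dorsal to ventral, and S and So (9 and 10) from left to right, where the letter o marks a mouse that was cut at a slightly oblique angle. Total RNA of each of the 61 fractions was measured on its own 1-colour array, and 56 fractions form the 28 pairs of matching position in 2 mice that served as replicates.

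Voltage-gated sodium channels open within the rising phase of the action potential and carry the inward current that drives it, and their beta subunits set gating and help to anchor the channel in the membrane. Calcium channels turn depolarization into calcium entry, which triggers transmitter release (P/Q type), couples activity to gene expression (L type) or supports burst firing near rest (T type). The alpha2delta and beta subunits bring the pore to the surface. Most proteins of the gamma group are better known as auxiliary subunits of AMPA receptors than of calcium channels.

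The reference promoter table (RefSeq, GRCm38.p6) held 33 start sites of 23 of the 31 members, and the 250 bases before the most upstream start are printed for 3 of them. Cacnb1 and Cacnb3 are shown because their levels moved together from fraction to fraction, and Cacng5 because its level was highest at the front of the brain. Capitals mark GGGCGG, the core of the GC box that Sp1 binds, on either strand.
Cacnb1 (chr11:98022628-98022877, minus strand): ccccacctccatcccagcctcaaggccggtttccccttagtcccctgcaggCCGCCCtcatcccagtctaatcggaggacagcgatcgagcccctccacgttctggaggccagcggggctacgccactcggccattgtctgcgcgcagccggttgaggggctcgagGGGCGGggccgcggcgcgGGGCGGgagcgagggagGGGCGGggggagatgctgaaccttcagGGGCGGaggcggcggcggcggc
Cacnb3 (chr15:98632078-98632327, plus strand): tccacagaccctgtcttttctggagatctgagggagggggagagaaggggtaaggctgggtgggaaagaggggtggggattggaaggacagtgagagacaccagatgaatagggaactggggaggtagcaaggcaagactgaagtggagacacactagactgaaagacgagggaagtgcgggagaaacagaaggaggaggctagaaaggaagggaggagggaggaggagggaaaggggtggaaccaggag
Cacng5 (chr11:107915056-107915305, minus strand): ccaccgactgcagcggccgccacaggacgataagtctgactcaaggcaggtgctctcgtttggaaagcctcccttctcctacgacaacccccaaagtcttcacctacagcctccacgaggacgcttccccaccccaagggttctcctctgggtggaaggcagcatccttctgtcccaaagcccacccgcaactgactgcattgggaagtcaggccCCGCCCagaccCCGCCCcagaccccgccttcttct
The Cacnb1 window held 5 copies of GGGCGG, that of Cacng5 held 2 and that of Cacnb3 held 0. The letters were thus found in the printed window of 1 of the 2 genes that moved together. For each of these 3 genes 2 starts are listed, and the copies given here are those before the most upstream one. Of the 33 member windows, 13 held the motif (39.4%), against 32.7% of all 32851 windows of this length. CCAAT, again on either strand, was found in 7 member windows (21.2%, against 33.8% of all), TATAAA in 1 (3.03%, against 12.4%), and CAGCTG, which reads the same on both strands, in 9 (27.3%, against 13% of all). No motif contains another, and a match describes the letters of the window only.

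A level is given as a percentage of the 75th percentile of the signal of all probes on the same array. It follows 1 probe from fraction to fraction and does not rank genes against each other. Differences and their SE are on the log2 scale. The share of probes well above background ran from 57.9% to 73.1% per array, 0 spots were saturated, and the SD between spots of 1 probe had a median of 0.06 (log2) across arrays. Of the 31 members, 23 were well above background in all 61 fractions and 27 in at least 31. Cacna1f, the L-type pore of photoreceptors, was well above background in 0 fractions and Scn7a, a sodium sensor of glia and circumventricular neurons, in 1. Scn11a, a pore of pain-sensing neurons, was so in 9 and Cacng1, a subunit of the skeletal muscle channel, in 24. In RNA of a whole fraction, fewer cells of a type and less RNA per cell cannot be told apart.

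**Figure D1:**
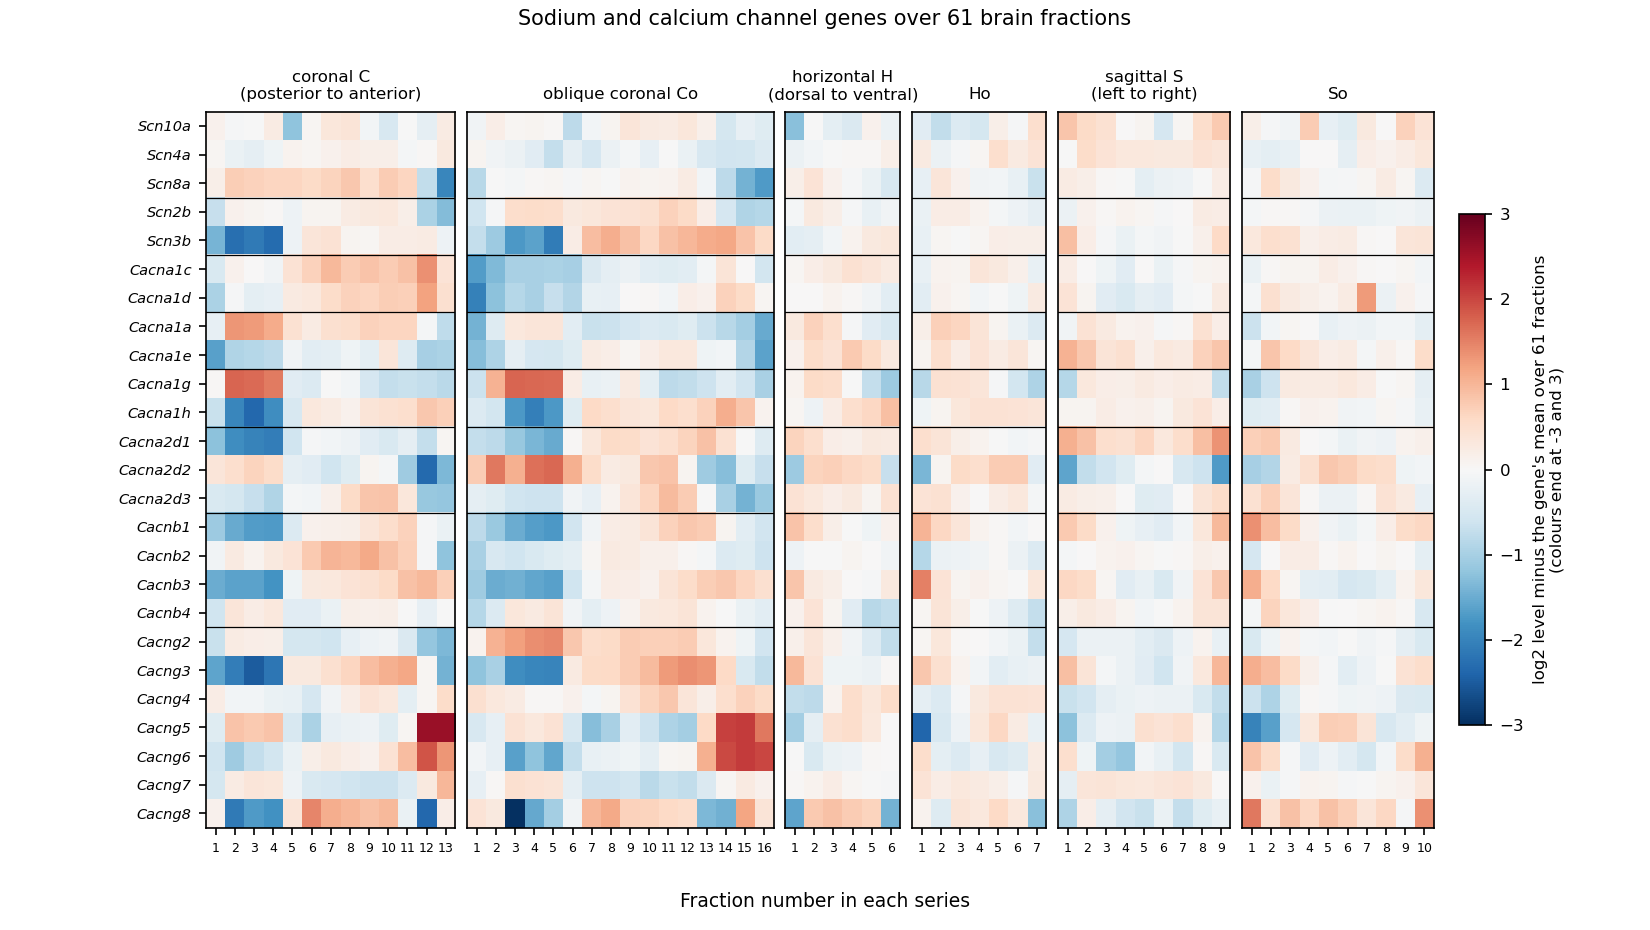
Heat map of 25 of the 27 members that were well above background in at least 31 fractions, grouped by subunit class, with the fractions of each series on the x axis. Colour gives the log2 level minus the mean of that gene over the 61 fractions, and the blue Scn3b, Cacna1h, Cacnb1, Cacnb3 and Cacng3 blocks at the posterior end of both coronal series and the red Cacng5 and Cacng6 blocks at the anterior end are patterns described in the text.

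Over the 28 pairs, 23 of the 30 members that could be tested varied (adjusted p under 0.05, moderated F of limma, adjusted by Benjamini-Hochberg over all probes), which is 76.7%, against 61.2% of all probes. The median F was 5.52. Every tested member of the T type (2 of 2), the alpha2delta group (3 of 3) and the sodium channel beta group (3 of 3) passed, as did 7 of 8 gamma subunits, 3 of 4 beta subunits and 4 of 6 sodium channel alpha subunits. Neither L-type gene passed. The largest F belonged to Cacnb1 (F = 73.5, adjusted p = 5.24e-18), followed by Cacna1h (35.0), Cacnb3 (32.3) and Cacng3 (31.7). The 7 members that missed the threshold were Scn4a, the skeletal muscle pore (F = 1.21), Scn7a (1.01), Cacna1a (1.63), Cacna1c (0.882), Cacna1d (1.94), Cacnb2 (1.64) and Cacng2 (0.941). With the mouse entered as a block, 29 of the 30 varied. The 2 coronal mice stood apart in Cacna1c, for which pair c12 read 134% in C12 but 67.3% in Co14. They also stood apart in Cacng2, with series medians of 14.4% in C and 32.0% in Co, and in Cacna1a, with 66.8% and 33.2%. The pairs were chosen by the study from correlations over these same arrays.

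**Figure D2:**
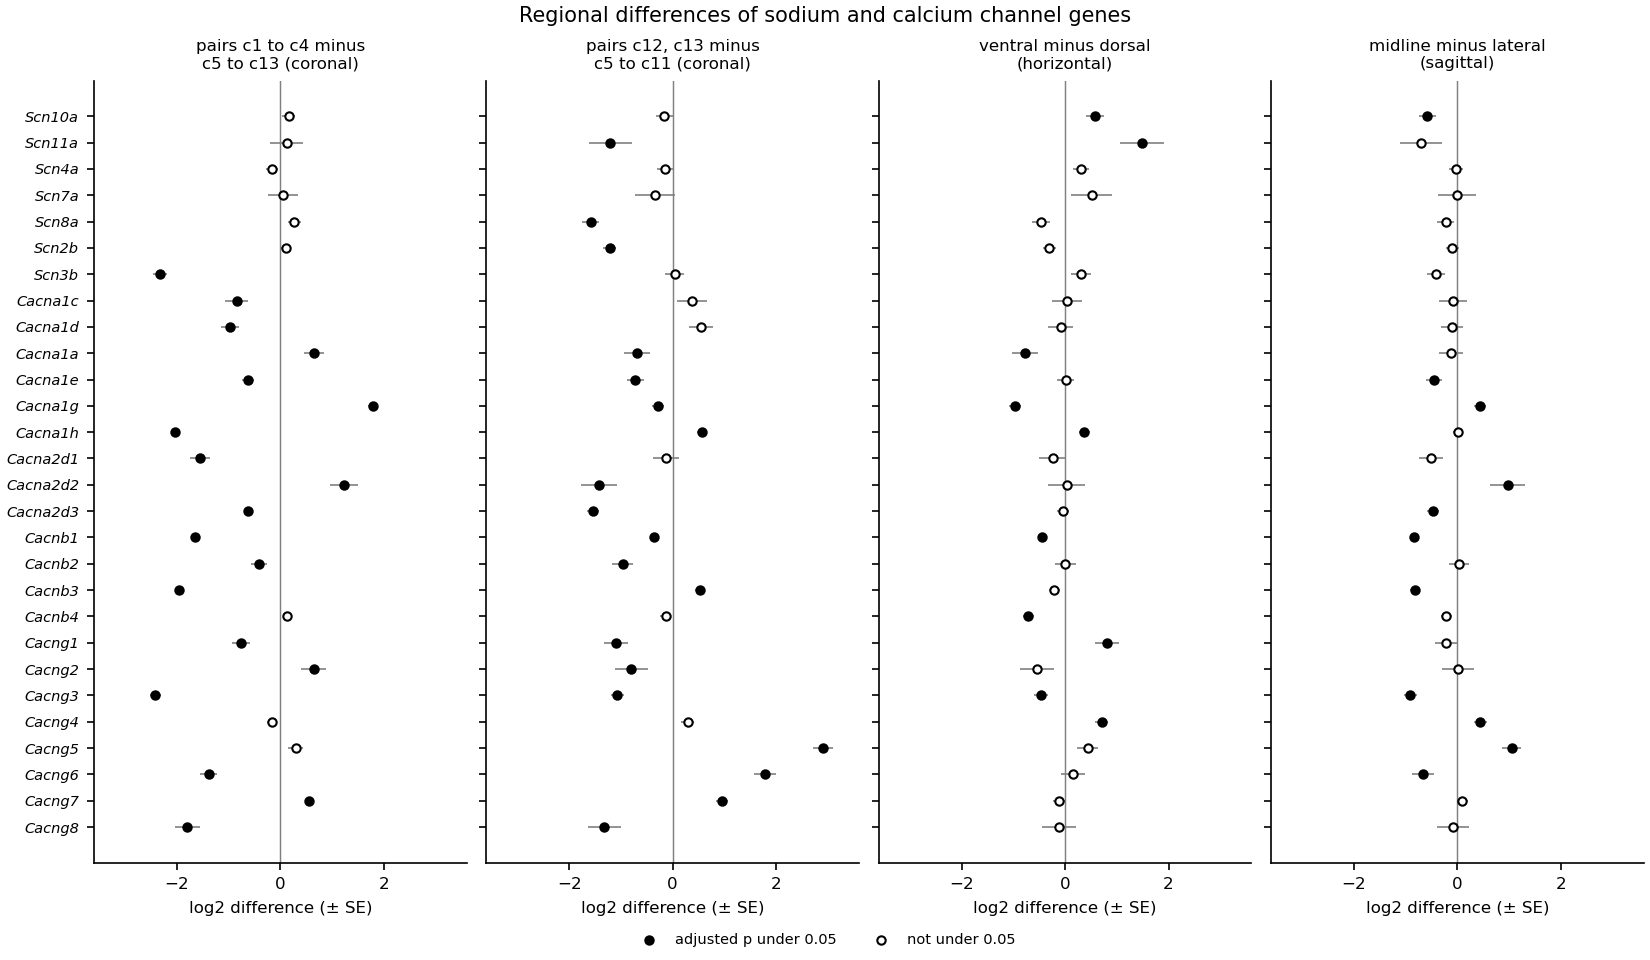
Log2 differences of 28 of the 30 tested members in 4 regional contrasts, with bars for the SE of the limma fit. Filled points have an adjusted p under 0.05. Among the genes drawn, Cacng3 lies farthest left in the caudal contrast and Cacng5 farthest right at the rostral end.

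The caudal contrast set the 4 posterior coronal pairs (C1 to C4 with Co2 to Co5, 8 fractions) against the 9 pairs in front of them (18 fractions). In the caudal fractions 15 of 30 members were lower and 6 were higher, while 9 did not pass the test. With the mouse as a replicate block 25 were called, and the 4 gained were Scn8a, Scn2b and Cacng5, with positive differences, and Cacng4, with a negative one (adjusted p of 0.014 to 0.0486). Of all probes, 20.6% were lower and 31.2% higher, 51.7% together. The median over the members was -0.29, beside 0.13 for all probes. Scaling each array to its median instead of its 75th percentile moved all probes down by 0.12, which turned the share of higher calls among all called probes from 60.3% to 45.0%. It left 17 members lower and 5 higher.

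Scn3b, an auxiliary sodium channel subunit, showed one of the widest gaps. Its lowest, median and highest levels were 9.83%, 13.1% and 22.9% in the caudal fractions and 43.9%, 64.4% and 109% in those ahead (-2.32 ± 0.14, adjusted p = 6.48e-15, limma with Benjamini-Hochberg adjustment). The groups did not overlap, and the step fell between fractions 4 and 5 of C, from 9.83% to 43.9%. Scn2b, another beta subunit, read 1098%, 1909% and 2586% against 717%, 2128% and 2848% (0.11 ± 0.09, adjusted p = 0.357), and did not pass.

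The T-type pores went opposite ways. Cacna1h fell to 16.6%, 24.7% and 58.9% caudally, from 61.3%, 119% and 183% ahead (-2.03 ± 0.08, adjusted p = 6.82e-20), again without overlap. Cacna1g, the main T-type pore of cerebellum and thalamus, rose 3.45-fold, with 374%, 1181% and 1227% against 207%, 279.8% and 436% (1.79 ± 0.09, adjusted p = 3.44e-17). Only C1 among the 8 caudal fractions lay within the range of the others, at 374%, and C2 to C4 with Co3 to Co5 stood between 1071% and 1227%. The lowest Cacna1h levels were found in the same fractions, 16.6% in C3 and 20.6% in Co4. The unpaired Co1, the back end of its series, entered no test. It read 232% for Cacna1g and 64.0% for Cacna1h, both within the range of the fractions ahead.

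**Figure D3:**
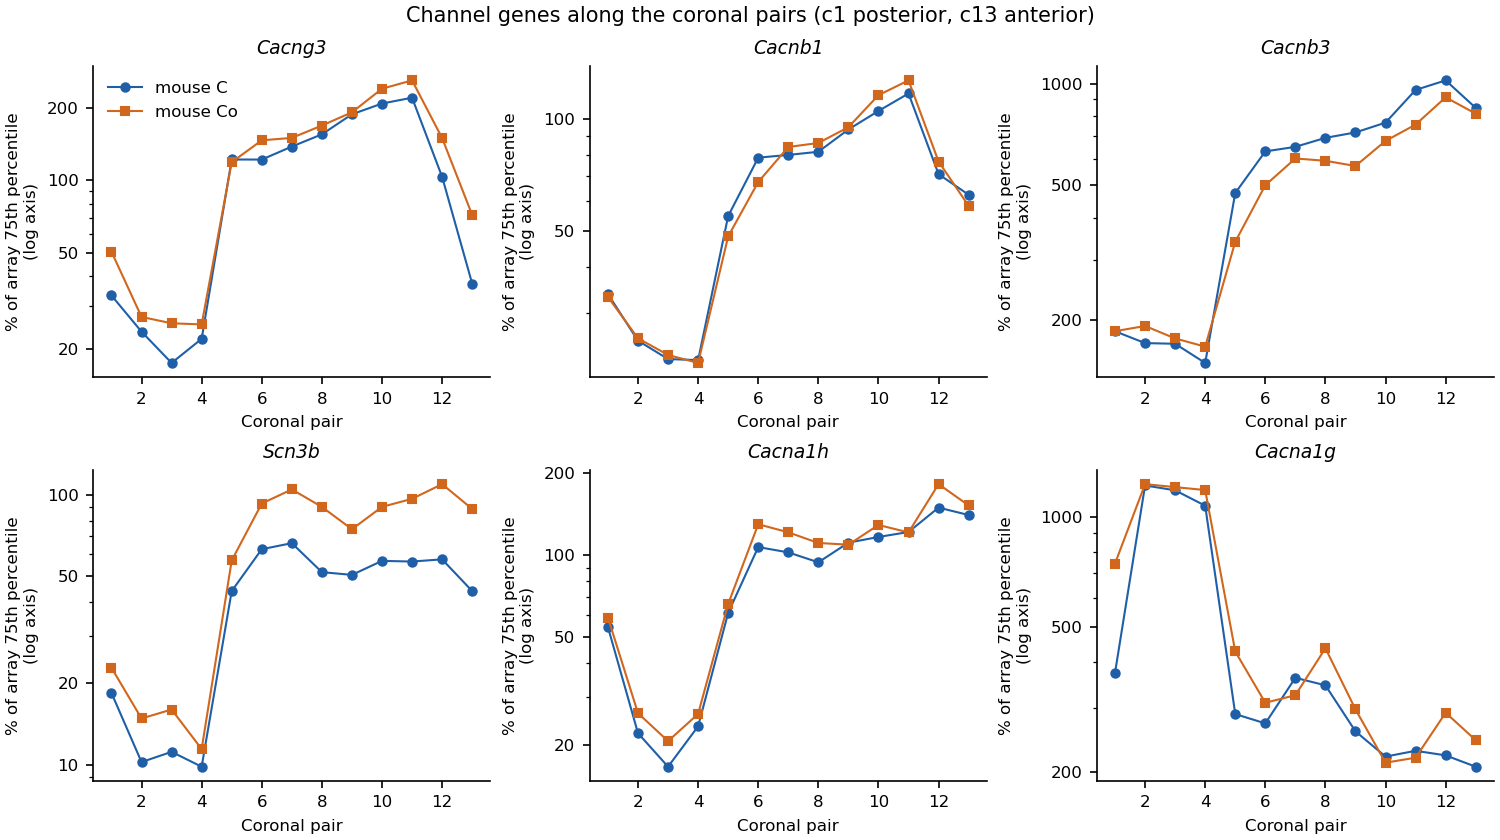
Levels of 6 members along the 13 coronal pairs in mouse C (circles) and mouse Co (squares), as a percentage of the 75th percentile of the array on a log axis. Cacng3, Cacnb1, Cacnb3, Scn3b and Cacna1h lie low in pairs 2 to 4, where Cacna1g reaches 1071% to 1227%.

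Among the cytoplasmic beta subunits, which bind the pore and hold it at the membrane, 3 of 4 were lower caudally. Cacnb3 had 149%, 173% and 192% against 340.3%, 684% and 1023% (-1.95 ± 0.08, adjusted p = 1.42e-19) and Cacnb1 had 22.0%, 24.2% and 33.8% against 48.3%, 80.7% and 127% (-1.65 ± 0.05, adjusted p = 1.18e-22), both without overlap. Cacnb2 was lower by a small step (-0.41 ± 0.15, adjusted p = 0.02) that was lost on leaving out any one of Co2, Co3, Co4 or Co5, with adjusted p of up to 0.105. Cacnb4, the subunit whose loss makes the lethargic mouse ataxic, held 635% and 515% as its medians (0.13 ± 0.08, adjusted p = 0.177).

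Of the alpha2delta subunits, extracellular proteins that raise the number of channels at the surface, Cacna2d1 was lower, with 76.0%, 118% and 187% against 195%, 324% and 509% (-1.55 ± 0.19, adjusted p = 2.93e-08) and no overlap. Cacna2d3 was lower too, by 0.61 (SE 0.09, adjusted p = 3.93e-07), although its range of 315% to 457% lay inside that of the fractions ahead. Cacna2d2, which is strong in Purkinje cells, was higher, with 240.1%, 341% and 613% against 37.3%, 166% and 392% (1.23 ± 0.26, adjusted p = 2.28e-04).

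In the gamma group, Cacng3 fell most (17.5%, 25.4% and 50.5% against 37.3%, 149.7% and 259.5%, -2.41 ± 0.10, adjusted p = 4.72e-19). Its only overlap came from Co2 at 50.5%, which exceeded the 37.2% of C13. Cacng8, another AMPA receptor partner, was lower by 1.80 (SE 0.24, adjusted p = 2.00e-07), but its levels jumped between neighbours, from 11.4% in C11 to 2.55% in C12 and 14.8% in C13. Cacng6 was well above background in 0 of 8 caudal and 18 of 18 other fractions, which puts it at least 2.55-fold lower caudally (adjusted p = 2.19e-08). Cacng2, the stargazin gene of AMPA receptor traffic, was higher with 31.4% against 17.9% as medians (0.64 ± 0.24, adjusted p = 0.0255), and Cacng7 with 44.3% against 24.0% (0.56 ± 0.08, adjusted p = 1.78e-06). The Cacng2 call ended under median scaling, and also on leaving out any one of Co2, Co3, Co4 or Co5 (adjusted p of up to 0.147).

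Among the high-voltage pores, Cacna1a of the P/Q type was higher at 35.5%, 60.2% and 116% against 23.0%, 36.9% and 74.8% (0.65 ± 0.19, adjusted p = 0.00445), with a peak of 116% in C2 and 60.5% in Co5. Cacna1c and Cacna1d of the L type were both lower, by 0.84 (SE 0.22, adjusted p = 0.00167) and 0.98 (SE 0.17, adjusted p = 1.97e-05). Cacna1e of the R type was lower by 0.63 (adjusted p = 7.47e-05) and was well above background in 2 of 8 caudal but 17 of 18 other fractions. Scn8a, the pore of axon initial segments and nodes, had medians of 264% and 261% (0.27 ± 0.13, adjusted p = 0.0779).

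The difference of each of the 21 called members had the same sign in both coronal mice, which were scanned on different days. Groups without overlap were found for 5 members, all of them lower caudally (Scn3b, Cacna1h, Cacnb1, Cacnb3 and Cacna2d1). Of all probes 5.34% had such groups, 3.41% lower and 1.93% higher. Outside the test, the unpaired Co1 read 64.0% for Cacna1h and 196% for Cacna2d1, within the range of the fractions ahead. For Scn3b (29.9%), Cacnb1 (41.8%) and Cacnb3 (247%) it lay below that range. One slide held Co5 beside Co6 to Co8, and within it 20 of the 21 kept their sign. C1 to C4 shared a slide and Co2 to Co4 another, with no fraction ahead on either. For these fractions slide and region cannot be told apart. With slide as a fixed block, 9 calls remained (1 higher, Cacna1g, and 8 lower, among them Cacna1h, Cacna2d1, Cacnb1, Cacnb3, Cacng3, Cacng6 and Scn3b), and as a random block 20 remained. Marker lists moved with the contrast. The summed level of 3 cerebellar granule cell markers was 182% to 2106% caudally and 9.97% to 331% ahead, with 3 of 3 higher, and that of 3 Purkinje cell markers 3223% to 14981% and 1364% to 5155%, also with 3 of 3 higher. The 3 cortex markers summed to 24.5% to 34.1% and 61.2% to 602%, with 3 of 3 lower, and of 6 general neuronal markers 4 were lower and 1 higher. Markers of oligodendrocytes (4 of 4, 18459.5% to 30483% against 7838% to 19101%), hindbrain (3 of 3, 215% to 555% against 2.88% to 127%) and astrocytes (3 of 3, 1972% to 3591% against 1422% to 3047%) were higher caudally. Their part in the channel differences was not tested.

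The rostral contrast set pairs c12 and c13 (C12, C13, Co14 and Co15) against pairs c5 to c11 (14 fractions). At this end 15 of 30 members were lower and 5 higher, and 10 did not pass. With the mouse as a replicate block 23 were called. Of all probes, 20.4% were lower and 18.4% higher, 38.8% together. Members without overlap between the groups numbered 8, with 4 higher and 4 lower, beside 14% of all probes (7.07% higher and 6.91% lower). Scn8a read 147%, 63.1%, 142% and 90.9% at the rostral end, while the 14 other fractions had 238%, 316% and 428% as lowest, median and highest level (-1.59 ± 0.17, adjusted p = 5.39e-09). Scn2b, an auxiliary subunit, likewise read 917%, 716%, 1261% and 944%, against 1604%, 2196% and 2848% (-1.22 ± 0.13, adjusted p = 2.63e-09). In both genes both mice dropped at C12 and Co14 and again one fraction further on. Scn3b did not pass (0.04 ± 0.19, adjusted p = 0.896).

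**Figure D4:**
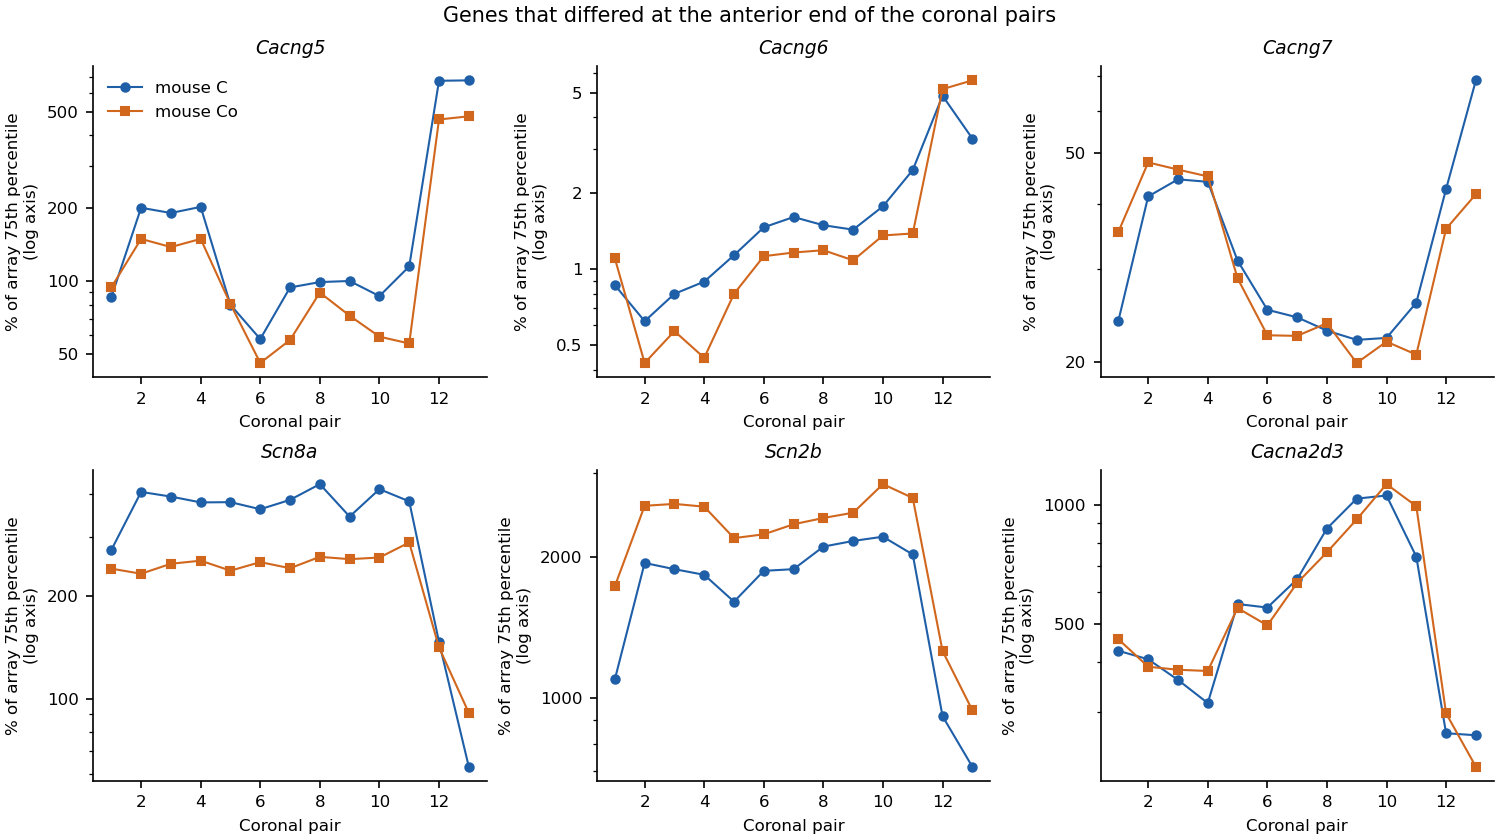
Levels of 6 members along the 13 coronal pairs in mouse C (circles) and mouse Co (squares), as a percentage of the 75th percentile of the array on a log axis. In pairs 12 and 13 Cacng5, Cacng6 and Cacng7 lie above all of pairs 5 to 11, and Scn8a, Scn2b and Cacna2d3 below them.

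At the rostral end 3 gamma subunits rose. Cacng5, an atypical AMPA receptor partner, read 673% in C12, 675% in C13, 465.6% in Co14 and 479.9% in Co15, against 46.0%, 80.2% and 115% in the 14 fractions behind (2.90 ± 0.19, adjusted p = 2.18e-13), a 7.48-fold difference. The unpaired Co16, the foremost fraction of its series, had 332%, and Co13, between c11 and c12, had 169%. Cacng6 read 4.86%, 3.29%, 5.16% and 5.59%, against 0.798%, 1.37% and 2.47% (1.79 ± 0.22, adjusted p = 7.25e-08). Cacng7, the closest relative of Cacng5, read 42.7%, 68.8%, 35.8% and 41.7%, against 19.9%, 22.7% and 31.2% (0.95 ± 0.11, adjusted p = 3.56e-08). It was also higher in the caudal contrast, where its median was 44.3%.

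Another 4 gamma subunits fell there. Cacng3 had 103%, 37.2%, 149.6% and 71.8% against 119%, 162% and 259.5% (-1.07 ± 0.13, adjusted p = 8.48e-08), so that Co14 alone lay within the range of the fractions behind. Cacng8 fell by 1.32 (adjusted p = 0.00126). It read 2.55% in C12 and 4.77% in Co14, but 14.8% in C13 and 29.8% in Co15. The levels of C13 and Co15 lay within the 11.4% to 35.8% of the 14 fractions behind. Cacng2 fell by 0.80 (adjusted p = 0.0482), a call that was lost on leaving out any 1 of 39 arrays and under median scaling. Cacng1 was well above background in 0 of 4 rostral and 13 of 14 other fractions. Its measured difference was -1.09 (adjusted p = 2.76e-04, limma), which sets no minimum fold since the rostral values were dim. With slide as a fixed block this difference turned to 0.06 (adjusted p = 0.978). The dim Scn11a, well above background in 0 of 4 and 4 of 14, was called lower (adjusted p = 0.0242), with no fold given since most fractions on both sides were not well above background, and this call was lost without any one of C12, Co14 and Co15 (adjusted p of up to 0.186).

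In the alpha2delta group, Cacna2d3 had its highest levels just behind this end. It went from 561% in C5 to 1054% in C10 and from 548% in Co6 to 1126% in Co11, and read 265%, 262%, 297% and 218% (-1.54 ± 0.11, adjusted p = 2.12e-12). Cacna2d2 fell as well, with 37.3%, 73.6%, 76.6% and 146% (-1.42 ± 0.35, adjusted p = 0.00156), but overlapped with the fractions behind. Cacna2d1 had a median of 327% against 319.6% (-0.14 ± 0.25, adjusted p = 0.721).

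Beta subunits split at this end. Cacnb3 rose, with 1023%, 848%, 912% and 815% against 340.3%, 640.2% and 958% (0.53 ± 0.10, adjusted p = 9.14e-05), whereas Cacnb2 (-0.97, adjusted p = 1.77e-04) and Cacnb1 (-0.35, adjusted p = 5.88e-05) fell. With pairs taken by the number in the labels, the Cacnb1 difference turned to 0.28 (adjusted p = 0.307). Cacna1h rose to 141% to 183%, above the 61.3% to 130.0% behind (0.57 ± 0.10, adjusted p = 4.17e-05). This call was lost with slide as a fixed block (0.34, adjusted p = 0.262) and with another probe of the gene (0.19, adjusted p = 0.14). The unpaired Co16, the foremost fraction of its series, read 91.7% for Cacna1h, within the range behind. Cacna1g fell (-0.29 ± 0.12, adjusted p = 0.0492), a call lost on leaving out any 1 of 43 arrays and under median scaling. Cacna1e fell to a median of 1.26% from 2.34% (-0.72 ± 0.16, adjusted p = 6.38e-04), and Cacna1a to 26.9% from 46.2% (-0.69 ± 0.25, adjusted p = 0.0285). The Cacna1a call was lost without any one of C13, Co14 and Co15 (adjusted p of up to 0.214). Neither L-type gene passed (Cacna1c 0.37, adjusted p = 0.344, and Cacna1d 0.55, adjusted p = 0.06), whereas another probe of each did (Cacna1c 0.56, adjusted p = 0.0104, and Cacna1d 0.92, adjusted p = 1.63e-04). With the mouse as a replicate block both passed, and Cacng4 too (adjusted p of 0.00132, 0.00397 and 0.00563).

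All 20 rostral calls had the same sign in both mice and within the slide that held C12 beside C9 to C11, and 13 remained with slide as a fixed block. C13, Co14 and Co15 shared no slide with pairs c5 to c11. The summed level of 3 olfactory bulb markers was 5824% to 8376% at the rostral end and 42.2% to 511% behind it, with 3 of 3 higher. Markers of oligodendrocytes (4 of 4 lower), striatal neurons (4 of 4 lower) and cortex (3 of 3 lower) and of astrocytes (3 of 3 higher) moved with it as well, and their part was not tested.

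Along the horizontal plane, pairs h4 to h6 were set against h1 to h3, with 6 fractions on each side. Ventrally 6 of 30 members were higher and 6 lower, and 18 did not pass. With the mouse as a replicate block 17 were called (8 higher, 9 lower), and the 5 gained were Scn3b and Scn4a, higher, and Scn2b, Scn8a and Cacng2, lower (adjusted p of 7.54e-05 to 0.0178). Of all probes, 7.4% were higher and 5.16% lower, 12.6% together. Leaving out H2 alone reduced the 12 calls to 7. Scaling by the median kept 6 and 6, while it turned the share of higher calls among all called probes from 58.9% to 44.4%.

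Cacng4, an AMPA receptor partner, had 43.1%, 46.0% and 49.6% ventrally and 19.5%, 29.3% and 41.5% dorsally (0.71 ± 0.13, adjusted p = 1.36e-04), without overlap. Cacna1h was higher by 0.37 (adjusted p = 0.0154), a call that was lost without H2, H3, H5 or H6 (adjusted p of up to 0.104) and under normexp correction. Among dim members, Scn11a was well above background in 4 of 6 ventral and 0 of 6 dorsal fractions. Its measured difference was 1.49 (adjusted p = 0.0188, limma). No minimum fold is given, since not all ventral fractions were well above background. The Scn11a call was lost with a floor of 5 on the signal and without any one of H2, H3, H5 and Ho2 (adjusted p of up to 0.0832). Cacng1 (0.81, adjusted p = 0.0195) was detected in 6 of 6 against 3 of 6 fractions and Scn10a (0.57, adjusted p = 0.0262) in 6 of 6 against 5 of 6, and each of these calls was lost without any 1 of 6 arrays.

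**Figure D5:**
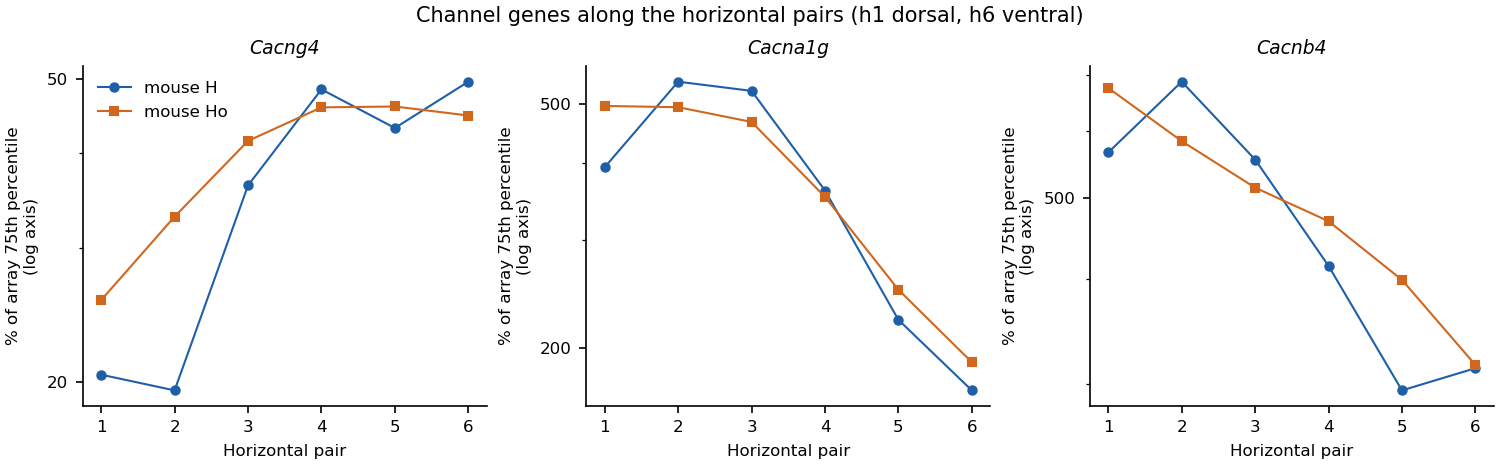
Levels of Cacng4, Cacna1g and Cacnb4 along the 6 horizontal pairs in mouse H (circles) and mouse Ho (squares), as a percentage of the 75th percentile of the array on a log axis. Cacng4 stands at 43.1% to 49.6% in pairs 4 to 6, above the 19.5% to 41.5% of pairs 1 to 3, while Cacna1g and Cacnb4 lie lower in pairs 4 to 6.

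Lower ventral levels were found for genes of several classes. Cacna1g fell from 394%, 495% and 543% dorsally to 171%, 236% and 361% ventrally (-0.97 ± 0.12, adjusted p = 7.49e-07) and Cacnb4 from 514%, 575% and 688% to 295%, 358% and 469% (-0.71 ± 0.11, adjusted p = 1.77e-05). Both genes and Cacna1a (57.3% to 76.9% against 33.6% to 49.4%, -0.77 ± 0.25, adjusted p = 0.0422) showed no overlap, but the Cacna1a call was lost on leaving out any 1 of 11 of the 12 horizontal arrays (adjusted p of up to 0.117). Cacnb1 (-0.45, adjusted p = 1.33e-05) and Cacng3 (-0.46, adjusted p = 0.0214) were lower too and overlapped with the dorsal fractions, both being highest in H1 and Ho1. The Cacng3 call was lost without any one of H1, H2, Ho5 and Ho7. Without overlap were 8 members in all (3 higher and 5 lower), beside 7.9% of all probes (4.12% higher and 3.78% lower). These include Scn3b and Cacng2, which did not pass the test (0.31, adjusted p = 0.371, and -0.55, adjusted p = 0.348). For Cacna1g the unpaired Ho1, the top of its brain, read 204%, within the ventral range.

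Each of the 12 ventral calls had 1 sign in both mice, and 11 kept it within the slide that held H3 beside H4 to H6. In mouse Ho no slide held both dorsal and ventral fractions. With slide as a fixed block, 4 calls remained, among them Cacng4, Cacna1g and Cacna1a. The summed level of 3 hypothalamus markers was 62.5% to 7392% ventrally and 17.4% to 26.2% dorsally (3 of 3 higher), that of 3 Purkinje cell markers 2246% to 4388% and 5984% to 7947% (3 of 3 lower), and that of 3 granule cell markers 48.4% to 305% and 226% to 743% (3 of 3 lower). Markers of oligodendrocytes (4 of 4, 14033% to 18844% against 4312% to 13657%) and hindbrain (3 of 3, 45.4% to 191% against 8.72% to 33.4%) were higher ventrally, and their part was not tested. For Scn11a and Scn10a, the sensory ganglion markers give the background of such cells. Of these, Prph was higher ventrally (1.99, adjusted p = 1.55e-06) and Avil, well above background in 24 of 61 fractions, did not pass (-0.13, adjusted p = 0.929). Whether these cells contribute was not tested.

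From left to right, the midline pairs s4 to s6 (6 fractions) were set against the outer pairs s1, s2, s8 and s9 (8 fractions). At the midline 8 of 30 members were lower and 4 higher, and 18 did not pass. With the mouse as a replicate block 14 were called, with Cacna2d1 (adjusted p = 1.66e-04) and Scn3b (adjusted p = 5.60e-04) gained as lower. Of all probes, 9.09% were lower and 10.5% higher, 19.6% together. Scaling to the median moved all probes by -0.11 and gave 10 lower and 3 higher members, with the share of higher calls among all called probes at 31.7% instead of 53.6%. Cacnb1 and Cacnb3, whose promoters are printed above, moved together again, and Cacng3 with them. Cacng3 had 65.4%, 83.3% and 96.1% at the midline and 123%, 145% and 196% laterally (-0.91 ± 0.13, adjusted p = 2.23e-06). Cacnb1 had 57.4%, 64.7% and 69.9% and 91.6%, 109% and 141% (-0.84 ± 0.06, adjusted p = 3.01e-11), and Cacnb3 had 368%, 394% and 448% and 541%, 722% and 912% (-0.82 ± 0.10, adjusted p = 1.70e-07). In none of them did the groups overlap. The course was mirrored across the brain, as in S, where Cacnb1 read 125% in S1, 57.4% in S6 and 141% in S9.

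Cacng5 was the member raised most at the midline, with 99.3%, 152% and 185% against 35.9%, 81.9% and 119.6% laterally (1.05 ± 0.18, adjusted p = 7.18e-05). Its neighbour Cacng4 was also higher, with 29.4%, 30.7% and 33.1% against 17.7%, 23.6% and 26.4% (0.44 ± 0.12, adjusted p = 0.00592), without overlap. Cacna1g (0.44 ± 0.11, adjusted p = 0.00397) was lowest in the outermost fractions, 199.8% in S1 and 219% in S9, and stayed between 409.8% and 455% in S2 to S8. Cacna2d2 was higher at the midline (0.97 ± 0.34, adjusted p = 0.0391), but this call was lost under median scaling and without any 1 of 7 arrays. Cacna2d3 (-0.47 ± 0.11, adjusted p = 0.00163) was lower there, with overlap. The calls for Cacna1e (-0.46, adjusted p = 0.0355) and Cacng6 (lower, adjusted p = 0.0214) were lost without any 1 of 8 and of 5 arrays, and that for Scn10a (-0.58, adjusted p = 0.00932) without S6. Cacng6 was well above background in 0 of 6 midline and 2 of 8 lateral fractions, so that no fold is given, and Scn10a in 1 of 6 and 5 of 8.

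Midline and lateral fractions did not overlap for 4 members (1 higher, 3 lower), beside 9.15% of all probes (4.69% higher and 4.46% lower). All 12 calls had 1 sign in both sagittal mice, and 10 kept it within each of the 4 slides that held midline and lateral fractions. The 3 cortex markers were lower at the midline (3 of 3, summed level 105% to 182% against 178% to 514%), and those of hindbrain (107% to 189% against 4.35% to 74.7%) and thalamus (559.7% to 605% against 229% to 346%) were higher (3 of 3 each), as were those of hypothalamus (3 of 3, 839% to 2365% against 18.9% to 462%) and oligodendrocytes (4 of 4, 17552% to 23353% against 6054% to 15617%). Their part in the channel levels was not tested. The contrast could not be fitted with slide as a fixed block.

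The members fell into loose sets when their courses over the 61 fractions were compared. Pearson's r over fractions is given as a description, since fractions of 1 brain, 1 slide and overlapping tissue enter every coefficient. Over the 351 pairs among 27 members, the median r was 0.09, from -0.78 (Cacna1g with Cacnb3) to 0.93 (Cacnb1 with Cacng3). The median was 0.04 over the 42 pairs within a class and 0.09 over the 309 pairs between classes. The largest set joined genes of 5 classes. Cacnb1, Cacnb3, Cacng3, Cacna2d1, Scn3b and Cacna1h, all lower in the caudal contrast, were linked by r of 0.89 (Cacnb1 with Cacnb3), 0.88 (Cacna1h with Scn3b), 0.85 (Cacna2d1 with Cacnb1) and 0.84 (Cacng3 with Scn3b). Scn8a ran with Cacna1a (0.73), Cacnb2 (0.73) and Scn2b (0.70). Cacna1c and Cacna1d of the L type stayed close (0.83). Cacng5 was most like Cacng7, but only at 0.44, and ran opposite to Cacna2d3 (-0.73).

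Genes that lie next to each other had low or moderate r. On chromosome 7, Cacng7, Cacng8 and Cacng6 are neighbours in the RefSeq annotation, and r was -0.07 between Cacng6 and Cacng7, 0.20 between Cacng6 and Cacng8, and -0.41 between Cacng7 and Cacng8. On chromosome 11, Cacng5 and Cacng4 had r = 0.44.

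For the member with the largest F of each of 7 classes, the 3 genes outside the family with the highest r among 12586 genes were as follows. Cacnb1 was closest to Fhl2 (0.98), Stx1a (0.97) and Cx3cl1 (0.97), and Cacng3 to Dmtn (0.97), Chst1 (0.96) and Stx1a (0.95). Both lists hold Stx1a, a syntaxin of the transmitter release machinery. Scn3b was closest to Rab40b (0.94), Icam5 (0.93) and Ctxn1 (0.92), and Cacna1h to Bcl11b (0.94), Actn2 (0.91) and Kcnf1 (0.91). Cacna2d3 was closest to Plcl2 (0.90), Tarsl2 (0.90) and Kcnq3 (0.90), which include a potassium channel gene, Cacna1e to Foxj3 (0.91), Atp6v0a1 (0.90) and Sel1l (0.89), and Cacna1d to Ppfia2 (0.84), Smarcd1 (0.83) and Hivep2 (0.83).

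Proteins that place, retain or modulate these channels were counted as a list. Of 25 genes listed, 22 were on the array under these names, and 16 varied over the pairs, beside 61.2% of all probes. In the caudal contrast 6 were higher and 8 lower of 21 tested (51.7% of all probes were called), and at the rostral end 4 were higher and 10 lower (38.8% of all probes), with medians of -0.11 and -0.34. Ventrally 2 were higher and 2 lower of 22 (12.6% of all probes), and at the midline 3 were higher and 6 lower (19.6% of all probes). Fgf13, an intracellular partner of sodium channels, was lower in the caudal fractions (-1.09, adjusted p = 8.67e-15) and at the rostral end (-0.83, adjusted p = 4.97e-09), and its relative Fgf14 was lower at the rostral end (-0.68, adjusted p = 2.17e-08) but slightly higher caudally (0.20, adjusted p = 0.006). Ank3 and Nfasc, which anchor sodium channels at the axon initial segment and node, were lower at the rostral end (-0.55, adjusted p = 3.60e-05, and -0.75, adjusted p = 4.03e-06), as Scn8a and Scn2b were. Stac, an adaptor of L-type channels, was higher caudally (2.04, adjusted p = 1.83e-15), and Gem, a small GTPase that inhibits calcium channels, was lower caudally (-1.23, adjusted p = 6.37e-06) and higher at the rostral end (1.48, adjusted p = 4.10e-05).

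Whether a contrast had the same size in both mice of a plane was tested by the interaction of contrast and mouse. For the caudal contrast 1 of 30 members passed (7.28% of all probes did), and for the ventral and midline contrasts 0 did (0.101% and 0.00547% of all probes). The exception was Cacnb3, which was lower caudally by 2.13 in C and by 1.78 in Co, a difference of 0.34 (SE 0.09, adjusted p = 0.0204). With slide as a random block it did not pass (adjusted p = 0.164). Each plane had 1 mouse per cutting angle, so that mouse, angle and, for most coronal and sagittal fractions, scan day cannot be told apart.

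More than 1 probe was available for 12 members. For Cacna1a, Cacna1c, Cacna1g and Cacna2d1 the other probe followed the used one with r between 0.92 and 0.97. It was looser for Cacnb4, with r from 0.58 to 0.74 over 3 probes, and for Cacna1d, with r = 0.28 for a probe well above background in 57 fractions. The second Scn10a probe, well above background in 28 fractions, had r = 0.56 and a caudal difference of -0.96, where the used probe gave 0.17. With the other probe 5 calls named above were lost, those for Cacna1a ventrally, Cacna1g and Cacna1h at the rostral end, Cacna2d2 at the midline and Scn10a ventrally.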

How the data were processed

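Total RNA of 61 brain fractions was hybridised to 1-colour arrays, 1 per fraction. The intensity values were deposited as the scanner output, in which the authors' Agilent Feature Extraction (9.1.3.1, per the file headers) had subtracted background without normalizing between arrays. A second table held intensities that the authors had divided by 1 constant per array, and it served as an alternative. Spots flagged as outliers and control spots were left out, and spots of 1 probe were averaged. Each array's log2 signal was set relative to its 75th percentile. Probes well above background on at least 1 array entered the fit in limma 3.58.1 (R 4.3.3), with 28 pairs as groups, 28 residual degrees of freedom, and p adjusted over all probes.

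The pairs came from the study, which matched fractions by correlation on these arrays, so that spread within pairs may be understated. Labels of the S series were renumbered from 1. Each pair joins the same 2 mice of a plane, and residuals around the pair means were correlated between pairs of the same mice (median 0.28 of 129 coefficients, 114 above 0.1) but not between others (-0.03 of 249). Gene names came from RefSeq identifiers of the probes, and all members are counted, of which some are not reported here by name. Members and gene lists were chosen with earlier results of these data known. The fits were tested on simulated data with independent noise on each array. Those data held no correlation within a mouse or slide, so the test does not speak for the p-values given here. The number of mice, 2 per plane, and the number of arrays, 61, limit the precision. Fractions of a contrast are parts of the same 2 brains, so its p-value does not speak for a wider set of animals.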

Additional observations from a re-analysis of the deposited data

Results flagged for a closer look

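In 5 of 108 series of a member within 1 mouse, the outermost value stood apart from its neighbour by more than the 95% critical share of the whole range. Chance gives about 1 in 20. Gap and range were taken on the log2 scale, so the shares below are not shares of the percentages. Cacnb3 was high in Ho1, at 1481% against 693% in Ho2, a gap of 0.712 of the range. Cacng5 was low in the same fraction, at 21.4% against 80.0% in Ho2 (0.633 of the range). Cacna1a was low in So1, at 30.0% against 38.0% in So10 (0.49). Scn4a was low in S1, at 8.75% against 10.8% in S7 (0.545), and Cacna1d was high in So7, at 24.9% against 14.2% in So2 (0.552). Ho1 and So1 are fractions without a partner and entered no test.

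The caudal difference of Cacnb3 was not the same in both coronal mice, Co minus C being 0.343 on the log2 scale by the interaction of contrast and mouse (adjusted p = 0.0204, limma).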

How the results depend on the processing

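Of 88 calls on single members, 38 held under every alternative other than leaving out arrays, and 71 held without any 1 of 56 arrays. With slide as a fixed block the calls numbered 9 caudally, 13 at the rostral end and 4 ventrally, and the rostral Cacng1 difference became 0.0576. Taking pairs by the number in the labels left 15 members varying over the pairs, 12 calls at the rostral end, 7 ventrally and 4 at the midline, and turned rostral Cacnb1 to 0.280. Leaving out 1 array gave 22 to 24 varying members and 19 to 22 caudal, 17 to 21 rostral, 7 to 12 ventral and 9 to 13 midline calls, the 7 without H2. A difference between mice passed for 2 members under median scaling and 2 in the authors' table, each time Cacnb3 and Cacng7 in the coronal plane. Under normexp 3 passed, coronal Cacnb3 and horizontal Cacna1h and Cacng4. For Cacng4, Ho minus H was -0.53 there (adjusted p = 0.0463, limma interaction). With slide as a random block 0 passed, and 0 where a fixed one could be fitted. The causes were not tested. With the mouse as a replicate block 29 members varied, and the calls were 25 caudally, 23 at the rostral end, 17 ventrally and 14 at the midline, with no call lost. Scn11a, Scn7a, Cacng1 and Cacna1f were dim, and their values rest on few or 0 fractions above background.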

Other observations

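The 5 fractions without a partner lay at the ends of their series, Co13 apart, and were set against the range of the paired fractions of the same mouse over 27 members. Ho1, the top of its brain, had 7 members above and 6 below that range, and So1, the left edge, had 5 above and 8 below. Co16, the front end, had 0 above and 7 below, and Co1, the back end, 1 above and 6 below. Co13 had 1 above and 0 below. The highest fraction of a member, with unpaired fractions included, was compared between the mice of a plane. It fell in the same pair for 12 of the 27 members in the coronal plane, for 4 in the horizontal and for 3 in the sagittal. Cacng5 was among them in the coronal and horizontal planes. A member that was highest in an unpaired fraction could not be counted. This was so for Cacnb1, Cacnb3, Cacng3 and Cacna2d1, which were highest in H1 in mouse H and in the unpaired Ho1 in mouse Ho.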
